A study of Mus musculus with 4 samples.

Results

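The genes described are 38 of the 18193 genes measured on the arrays: those that copy DNA and control the passage from G1 into S phase of the cell cycle. They were taken as the measured part of a list of 39 textbook replication and G1/S genes, by matching each symbol to the single gene symbol that the platform annotation gives a probe set, a group of probes for 1 transcript. Chaf1a was not analysed here. The 38 genes had 83 probe sets, 9 genes having 1 and 29 having several, with 5 the most, and a gene's value was the mean of its probe sets.

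RNA came from mammary epithelial cells of virgin CD1 female mice aged 8 to 12 weeks, sorted as Lin-, CD24+, CD29hi, a gate enriched for mammary stem cells and basal cells. All cells were embedded in growth factor reduced Matrigel, an extract of basement membrane, where they formed colonies under DMEM/F12 with ITS supplement and 50 ng/ml EGF, and colonies of passage 2 were harvested after 6 to 7 days. The Wnt3A group received 200 ng/ml purified Wnt3A, a secreted activator of the canonical Wnt pathway, and the control group its vehicle, 1% CHAPS in PBS, throughout the culture. Each group had 2 arrays, called Wnt3A 1, Wnt3A 2, control 1 and control 2. The design text states 2 sets of replicates. The labels do not say whether arrays of a group, or arrays that share a number, share an animal or a culture. The p-values therefore measure the spread between these 4 arrays alone, and that spread may be technical.

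DNA replication starts when origins bound by the origin recognition complex receive the MCM helicase from the loading factors CDC6 and CDT1 in G1. Cyclin E with its kinase and the E2F transcription factors then switch on S phase, in which the helicase is activated by CDC45, the GINS complex and MCM10, and primase, polymerases, the PCNA clamp and its RFC loader copy both strands. Many of these genes are E2F targets and are transcribed together around the G1/S boundary, so in a tissue or culture they are widely read as a proliferation signature. In the mammary gland they are known for their high levels in dividing epithelium.

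Every deposited value is on a log2 scale centred so that the median of a probe set across the 4 arrays is 0. The values carry no absolute level, and for a single probe set the 2 middle arrays hold equal values of opposite sign. A rough level band can be read from the precision with which the numbers were stored. In the upper band, log2 8 to 16, fell 34 of the 38 genes, against 50.3% of all genes, and the other 4 (Orc1, Cdc6, Tyms and Chaf1b) fell in the band of 4 to 8. Of 8 basal markers fixed for the check of the labelled cell type, 7 had a probe set in the upper band, as had 6 of 9 luminal, 3 of 8 squamous keratinocyte, 1 of 7 fibroblast, 1 of 6 immune and 0 of 5 endothelial markers. The immune marker Ptprc was in the band below 4. The 5' minus 3' difference of the Gapdh control probe sets lay between -0.07 and 0.03 over the arrays and that of the beta-actin probe sets between -0.03 and 0.09. Since each probe set is centred over the arrays, these values lie near 0 at any RNA integrity. They compare the arrays with each other and do not show how intact the RNA was.

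The replication and G1/S genes did not separate Wnt3A from control colonies. Their median difference, Wnt3A minus control, was 0.001 log2 units, with 19 genes above 0 (50.1% of all genes) and 19 below, and single differences ran from -0.34 (Rfc4) to 0.34 (Rrm2). The 2 control arrays instead lay at opposite ends, with control 1 highest and control 2 lowest, and both Wnt3A arrays lay between them. The median over the 38 genes was 0.08 in Wnt3A 1 and -0.07 in Wnt3A 2, against 0.32 in control 1 and -0.28 in control 2. In bulk RNA of a culture, fewer cells in S phase and less transcript per cell cannot be told apart.

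In the comparison of Wnt3A with control, limma called 0 of the 38 genes at an adjusted p under 0.05, as it called 0 of all 18193 genes (0.0%). At an unadjusted p under 0.05 the counts were 0 of the 38 and 1340 of all genes (7.37%), of which 645 were higher (3.55%) and 695 lower (3.82%). A value at least 0.5 log2 units higher with Wnt3A was measured for 0 of the 38, against 3.88% of all genes. Genes lower by that amount were not counted over all genes. The smallest unadjusted limma p among the 38 was 0.177, for Orc1, with an adjusted p of 0.86, and standard errors ran from 0.12 to 0.46 log2 units. Only Orc1 had both Wnt3A arrays above both controls, against 17.0% of all genes, and 0 genes had both below, against 17.5% of all genes. Orc1 was separated only as the mean of its 2 probe sets, in each of which the groups overlapped. The other 37 overlapped.

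**Figure D1:**
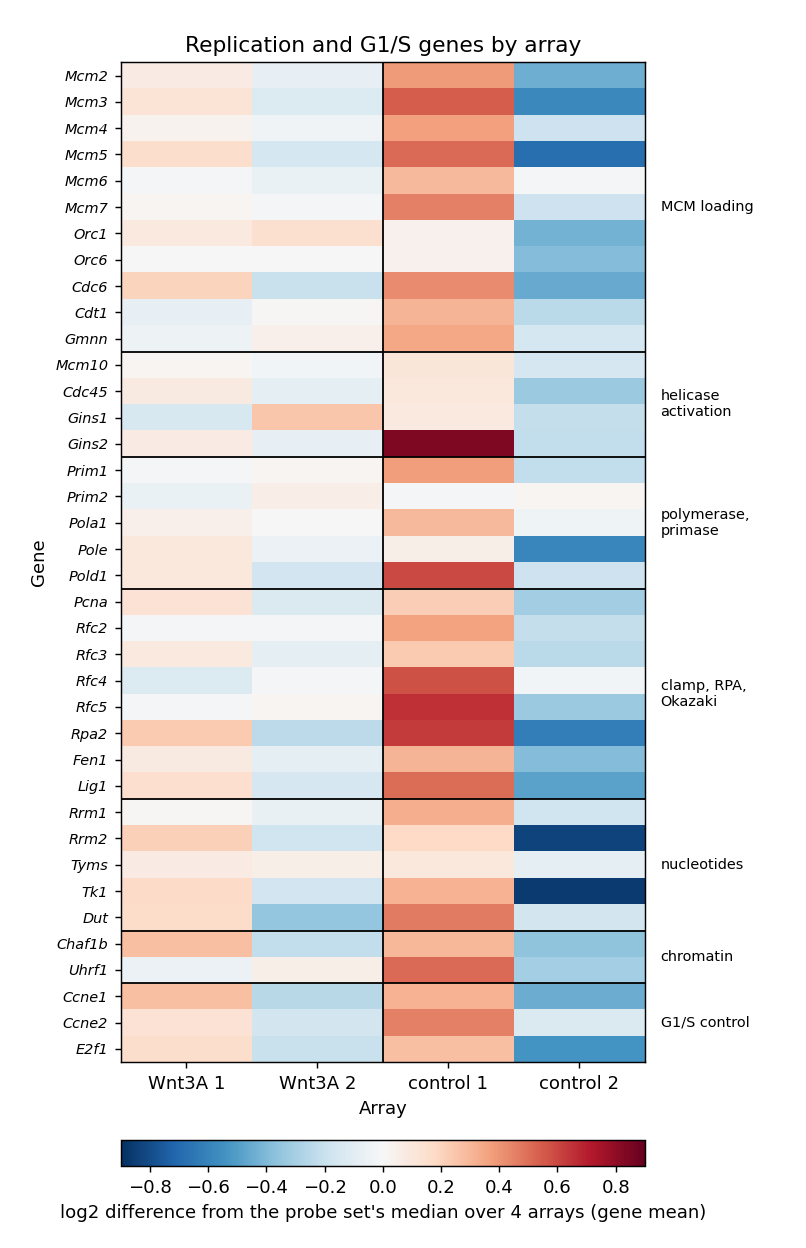
Values of the 38 genes (rows, grouped by role) in the 4 arrays (columns), coloured by the log2 difference from the median over the arrays, red high and blue low. The columns Wnt3A 1 (median 0.08) and Wnt3A 2 (-0.07) are pale, control 1 (0.32) is the reddest and control 2 (-0.28) the bluest.

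Control 1 was the highest of the 4 arrays for 33 of the 38 genes, as it was for 5546 of all 18193 genes. Control 2 was the lowest for 33, as it was for 5556 of all genes. Both held at once for 29 of 38, against 11.0% of all genes. It held for 27 of 38 after each array was centred on its own median (9.13% of all genes) and for 27 after quantile normalization (8.74%). The full order control 1, Wnt3A 1, Wnt3A 2, control 2 from high to low was seen for 24 of 38, against 7.78% of all genes. The controls were further apart than the Wnt3A arrays for 36 genes, against 50.6% of all genes. Wnt3A 1 was above Wnt3A 2 for 29 of 38 genes (60.5% of all genes), by a median of 0.15 log2 units, a 1.11-fold difference. Control 1 was above control 2 for 37 of 38 (58.9% of all genes), by a median of 0.61, a 1.53-fold difference.

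The difference between Wnt3A and control had opposite signs in the arrays of the 2 numbers. Wnt3A 1 was below control 1 for 35 of 38 genes (49.8% of all genes), with a median of -0.31. Wnt3A 2 was above control 2 for 35 of 38 (49.6% of all genes), with a median of 0.22. Both held for 32 genes, against 20.1% of all genes. Where control 1 is the highest array and control 2 the lowest, as in 29 of the 38, these signs follow from that order. So do the wider distance between the controls and the signs with 1 control left out. These values largely restate the order of the arrays and are not separate results. Leaving out control 2 gave a median Wnt3A minus control difference of -0.34, and leaving out control 1 gave 0.29. The differences within a number compare single arrays and have no test.

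**Figure D2:**
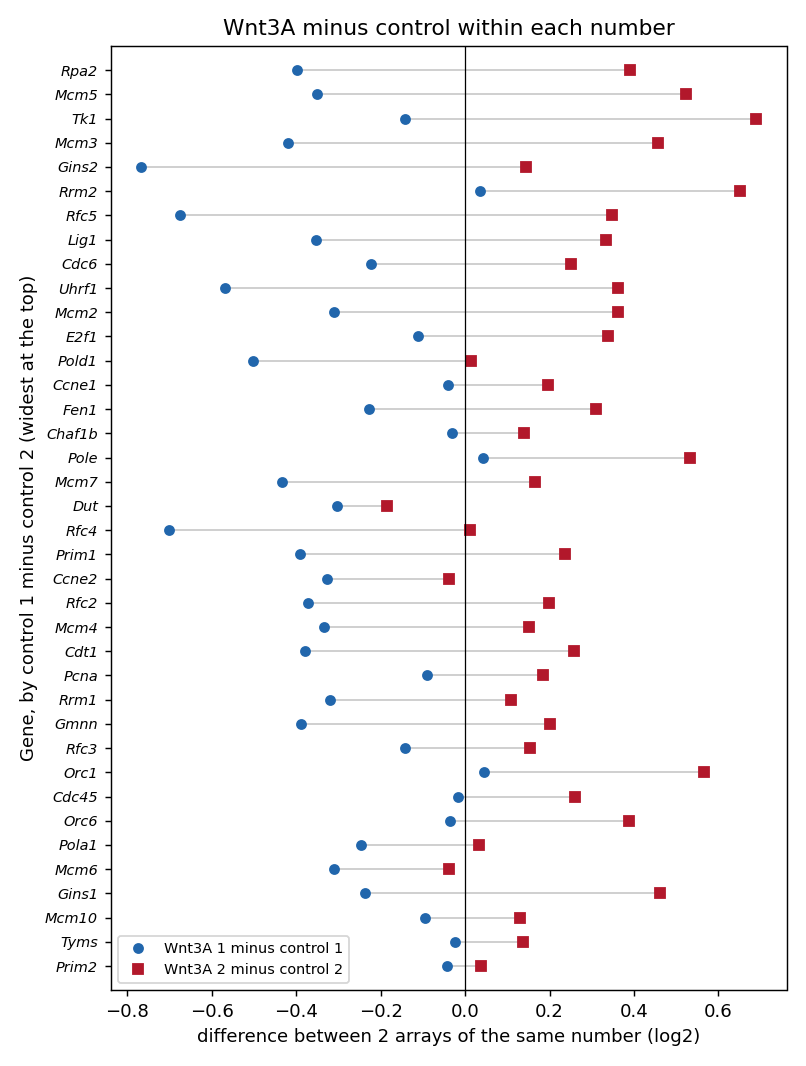
Wnt3A minus control within arrays numbered 1 (circles) and within arrays numbered 2 (squares), in log2 units, for the 38 genes ordered by control 1 minus control 2. Circles lie left of 0 for 35 genes and squares right of 0 for 35.

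Arrays numbered 1 (Wnt3A 1 and control 1) were then set against arrays numbered 2 (Wnt3A 2 and control 2), because the labels number the arrays 1 and 2 in each group. The genes were higher in arrays numbered 1, by a median of 0.38 log2 units (1.30-fold), against 0.06 over all genes and 0.03 over all genes of the upper level band, and by 0.32 with each array centred and 0.33 with quantile normalization. The difference was above 0 for 36 of 38 genes (62.2% of all genes). The exceptions were Gins1 (-0.04 ± 0.20, SE) and Prim2 (-0.07 ± 0.10). Both arrays numbered 1 lay above both arrays numbered 2 for 29 genes, against 31.5% of all genes, and below for 1, Prim2, against 14.3%. When each array was first centred on its own median, these counts were 22 and 1, against 23.1% and 20.2% of all genes, and quantile normalization gave 22 and 1, against 23.0% and 20.3%.

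The differences between the numbers did not pass the test across all genes. Limma called 0 of the 38 at an adjusted p under 0.05, and 0 of 18193 genes (0.0%). At an unadjusted p under 0.05 the counts were 14 of 38, all higher in arrays numbered 1, against 1356 higher (7.45%) and 760 lower (4.18%) of all genes. The smallest adjusted limma p among the 38 was 0.329, shared by Ccne1 and Chaf1b. A value at least 0.5 log2 units higher in arrays numbered 1 was measured for 13 of 38, against 3.97% of all genes.

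**Figure D3:**
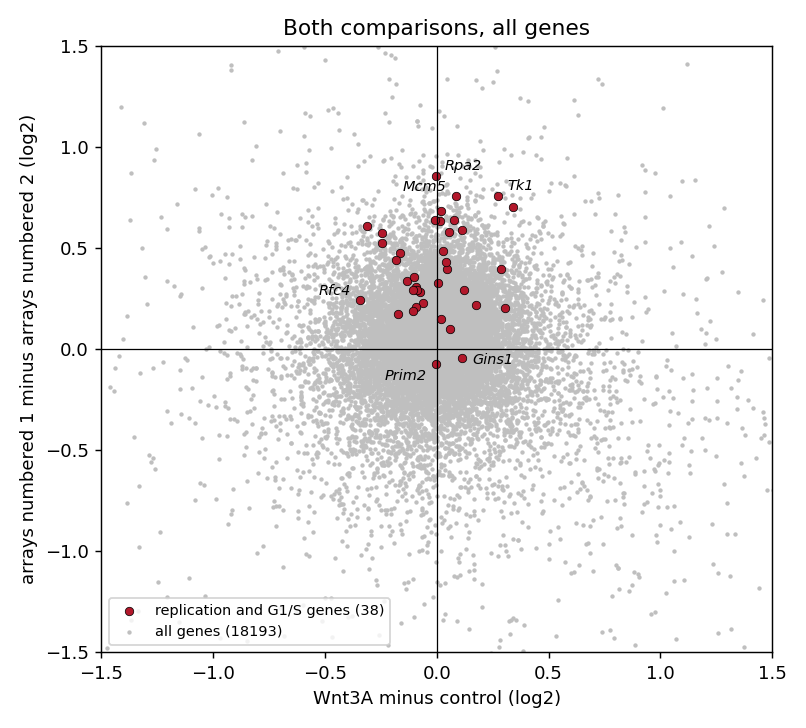
Wnt3A minus control (x axis) and arrays numbered 1 minus arrays numbered 2 (y axis), both in log2 units, for the 38 genes (red) and all 18193 genes (grey). The red points lie on both sides of 0 on the x axis and above 0 on the y axis for 36 of 38. The axes stop at 1.5 log2 units, beyond which lie 172 genes, none of the 38.

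The promoters of the 38 genes were searched for the E2F motif, the sequence through which E2F factors bind many G1/S genes. It was searched as TTTCCCGC, TTTCGCGC, TTTGCCGC or TTTGGCGC, on both strands, in RefSeq windows of GRCm38.p6 that run from 250 bases before to 50 bases after an annotated transcript start. Windows were found for 30 of the 38 genes, 4 of which had several. The motif was present in 12 of the 30 (40.0%), against 3.8% of the 14452 genes of the array with a window and 2.3% of all 32851 windows. These 12 were Mcm3, Mcm5, Mcm6, Mcm7, Orc1, Cdc6, Cdt1, Pola1, Pold1, Rfc3, Lig1 and Uhrf1. Since the list holds textbook G1/S genes, many of them E2F targets, a high share was built in by the choice of list. It says nothing about the order of the arrays. CCAAT was present in 17 of 30 (56.7%, against 42.0% of array genes), GGGCGG, the GC box, in 22 (73.3%, against 57.3%), and TTTGAA or TTCGAA, the CHR element of cell cycle genes, in 5 (16.7%, against 17.5%). The median difference between arrays numbered 1 and 2 was 0.35 for the 12 genes with an E2F motif and 0.45 for the 18 without one.

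The 4 windows below are shown because each gene is described among the results, has a single window, and holds an E2F motif before the start. Each is the 250 bases before the start, 5′ to 3′ on the gene's own strand, with the E2F motif in capitals on whichever strand it reads. The windows lie at chr8:75109259-75109508 (+) for Mcm5, chr11:98907901-98908150 (+) for Cdc6, chr4:108579204-108579453 (+) for Orc1 and chr1:128359706-128359955 (-) for Mcm6. Other transcript starts of these genes may exist.
Mcm5: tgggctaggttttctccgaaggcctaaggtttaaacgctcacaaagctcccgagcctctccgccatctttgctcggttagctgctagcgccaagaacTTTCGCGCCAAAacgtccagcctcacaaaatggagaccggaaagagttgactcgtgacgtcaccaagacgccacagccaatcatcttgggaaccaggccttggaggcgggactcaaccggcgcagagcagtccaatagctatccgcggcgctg
Cdc6: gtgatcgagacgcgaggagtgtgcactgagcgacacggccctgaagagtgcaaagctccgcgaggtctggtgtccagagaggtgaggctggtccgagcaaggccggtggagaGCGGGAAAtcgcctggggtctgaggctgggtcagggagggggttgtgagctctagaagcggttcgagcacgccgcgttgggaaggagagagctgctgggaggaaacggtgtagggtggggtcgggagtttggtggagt
Orc1: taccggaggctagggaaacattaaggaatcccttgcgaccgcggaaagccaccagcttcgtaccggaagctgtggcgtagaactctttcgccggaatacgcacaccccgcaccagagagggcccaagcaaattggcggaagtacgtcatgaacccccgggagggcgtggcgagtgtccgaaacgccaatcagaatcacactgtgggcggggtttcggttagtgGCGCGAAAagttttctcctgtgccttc
Mcm6: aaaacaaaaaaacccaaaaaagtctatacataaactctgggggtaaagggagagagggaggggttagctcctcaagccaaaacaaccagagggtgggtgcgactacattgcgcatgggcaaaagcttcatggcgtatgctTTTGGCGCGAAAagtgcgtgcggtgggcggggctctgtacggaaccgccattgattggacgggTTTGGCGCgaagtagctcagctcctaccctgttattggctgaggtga
In Mcm5 the capitals hold 2 motifs that overlap, TTTCGCGC on the sense strand and TTTGGCGC on the other, whose first printed bases are 153 and 149 bases before the start. The Mcm6 window holds 3, of which the first 2 overlap at 110 and 106 bases before the start and the third lies at 47. Cdc6 has 1, reading TTTCCCGC on the opposite strand, at 138, and Orc1 has 1, reading TTTCGCGC on the opposite strand, at 27. A match is a description of the sequence and was not tested as a binding site.

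The MCM2 to MCM7 proteins form the ring-shaped helicase that unwinds DNA. Their 6 genes had the order control 1, Wnt3A 1, Wnt3A 2, control 2 in all but 1, against 7.78% of all genes. They are among the 24 genes already counted for that order. Mcm5 was at 0.16 and -0.16 in Wnt3A 1 and Wnt3A 2, against 0.51 and -0.68 in control 1 and control 2, and Mcm3 at 0.12 and -0.12 against 0.54 and -0.58. The Wnt3A values of both genes lay inside the range of the controls. The differences, Wnt3A minus control, were 0.09 ± 0.42 (SE) for Mcm5 and 0.02 ± 0.40 for Mcm3, while number 1 minus number 2 gave 0.76 ± 0.24 and 0.69 ± 0.23 (limma unadjusted p = 0.0305 and 0.0395, adjusted p = 0.405 and 0.415). Mcm2 was at 0.07 and -0.07 with Wnt3A, against 0.38 and -0.44 in the controls.

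Mcm4 and Mcm7 showed the same order with a smaller spread. Mcm4 was at 0.03 and -0.03 with Wnt3A, against 0.37 and -0.18 in the controls, and Mcm7 at 0.02 and -0.02 against 0.45 and -0.19. Mcm6 was at -0.02 and -0.06 with Wnt3A, against 0.29 and -0.02, so that Wnt3A 2 rather than control 2 was its lowest array. Its 3 probe sets differed by 0.49, -0.02 and 0.06 between the numbers, and the first was lowest in control 2. Number 1 minus number 2 was 0.48 ± 0.19 for Mcm2, 0.31 ± 0.16 for Mcm4, 0.18 ± 0.14 for Mcm6 and 0.34 ± 0.18 for Mcm7. Wnt3A minus control lay between -0.17 (Mcm6) and 0.09 (Mcm5) over the 6 genes.

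Origin recognition and helicase loading gave less even values. Cdc6, a loading factor, was at 0.20 and -0.20 with Wnt3A, against 0.42 and -0.45 in the controls, a number difference of 0.64 ± 0.15 (limma unadjusted p = 0.0115, adjusted p = 0.36). Orc1, the largest subunit of the origin recognition complex, was at 0.09 and 0.14 with Wnt3A, against 0.04 and -0.42 in the controls. Its difference from control was 0.31 ± 0.19 (limma adjusted p = 0.86). Leaving out control 1 gave 0.54 and leaving out control 2 gave 0.07. Its number difference of 0.20 ± 0.22 turned to -0.080 without control 2, and its 2 probe sets gave 0.56 and -0.15. Orc6, a smaller subunit, was at 0.0045 and -0.0045 with Wnt3A, against 0.04 and -0.39. Cdt1, the second loading factor, was at -0.08 and 0.01, against 0.30 and -0.24. Gmnn, which encodes geminin, the inhibitor of CDT1, was at -0.04 and 0.04, against 0.35 and -0.16. For these last 2 genes the arrays of the 2 numbers overlapped, and the number differences were 0.23 ± 0.18 and 0.21 ± 0.18.

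Among the factors that activate the helicase, Gins2 stood out for control 1. It was at 0.08 and -0.08 with Wnt3A, against 0.84 in control 1 and -0.22 in control 2, and the value in control 1 was the highest of any of the 38 genes in any array. Wnt3A minus control was -0.31 ± 0.37 (limma adjusted p = 0.99). Leaving out control 1 gave 0.22 and leaving out control 2 gave -0.84. The 2 Gins2 probe sets lay 0.04 log2 units apart in each comparison. Gins1, another GINS subunit, was at -0.15 and 0.25 with Wnt3A, against 0.09 and -0.21, and was thus highest in Wnt3A 2. Its 2 probe sets differed by 0.18 and -0.27 between the numbers, and the first, in the upper level band, was highest in control 1. Mcm10 and Cdc45, which join the helicase at the start of unwinding, had number differences of 0.15 ± 0.11 and 0.29 ± 0.13, and Wnt3A minus control differences of 0.02 and 0.12.

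The polymerase and primase genes varied in the order of the arrays. Pold1, the catalytic subunit of the lagging-strand polymerase delta, was at 0.09 and -0.17 with Wnt3A, against 0.60 and -0.19 in the controls, with Wnt3A minus control at -0.24 ± 0.30. Pole, the catalytic subunit of the leading-strand polymerase epsilon, was at 0.10 and -0.05, against 0.05 and -0.59, with a difference of 0.29 ± 0.25. The first gene was set apart by a high control 1 and the second by a low control 2. Pola1, which encodes the catalytic subunit of polymerase alpha, and Prim1, a primase subunit, differed between the numbers by 0.19 ± 0.13 and 0.28 ± 0.18. Prim2, the other primase subunit, had values within 0.06 of 0 in every array as a mean of 3 probe sets, but these differed by -0.74, 0.50 and 0.01 between the numbers.

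The sliding clamp, its loader, the single-strand binding protein and the enzymes that finish lagging-strand fragments were all highest in control 1. That array was also the highest for 5546 of all 18193 genes. Rpa2, a subunit of the single-strand binding protein RPA, had the widest spread: it was at 0.23 and -0.23 with Wnt3A, against 0.63 and -0.62 in the controls. Its Wnt3A minus control difference was -0.0038 ± 0.46 and its number difference 0.86 ± 0.21, the largest of the 38 genes (limma unadjusted p = 0.0142, adjusted p = 0.364). Its 2 probe sets gave 0.83 and 0.89. Pcna, the clamp that holds polymerases on DNA, was at 0.13 and -0.13 with Wnt3A, against 0.22 and -0.32, a number difference of 0.40 ± 0.12. Lig1, the ligase that joins Okazaki fragments, was at 0.15 and -0.15, against 0.50 and -0.48. Fen1, the flap nuclease that trims those fragments, differed by 0.43 ± 0.16 between the numbers.

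The 4 small subunits of the clamp loader had number differences of 0.29 ± 0.17 (Rfc2), 0.33 ± 0.12 (Rfc3), 0.24 ± 0.26 (Rfc4) and 0.48 ± 0.28 (Rfc5). Rfc4 was at -0.13 and -0.01 with Wnt3A, against 0.58 and -0.02 in the controls, so that control 1 alone stood apart. Wnt3A minus control was -0.34 ± 0.23 for Rfc4 (limma adjusted p = 0.885), -0.64 without control 2 and -0.05 without control 1. The number difference of Rfc4 turned to -0.11 without control 1. Rfc5 was at -0.02 and 0.02 with Wnt3A, against 0.66 in control 1 and -0.33 in control 2, so that both controls lay outside the Wnt3A arrays.

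The genes of nucleotide supply held the 2 lowest control 2 values of the 38 genes, those of Tk1 and Rrm2. Tk1, the S-phase thymidine kinase, was at 0.17 and -0.17 with Wnt3A, against 0.31 in control 1 and -0.86 in control 2. Rrm2, the regulated subunit of ribonucleotide reductase, was at 0.22 and -0.18, against 0.18 and -0.83. Their Wnt3A minus control differences were 0.27 ± 0.42 for Tk1 and 0.34 ± 0.38 for Rrm2. Leaving out control 1 gave 0.86 for Tk1 and 0.85 for Rrm2, and leaving out control 2 gave -0.31 for Tk1 and -0.16 for Rrm2. Between the numbers they differed by 0.76 ± 0.26 and 0.70 ± 0.24 (limma adjusted p = 0.415 and 0.416). All 3 Rrm2 probe sets were lowest in control 2, at -0.75, -0.99 and -0.75.

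Dut, the dUTPase that keeps uracil out of DNA, was at 0.16 and -0.35 with Wnt3A, against 0.47 and -0.16 in the controls, and was lowest in Wnt3A 2. Its difference from control was -0.24 ± 0.29, which was -0.56 without control 2. Rrm1, the large subunit of ribonucleotide reductase, differed by 0.29 ± 0.15 between the numbers and by -0.10 ± 0.20 between Wnt3A and control. Tyms, thymidylate synthase, differed by 0.10 ± 0.10 and 0.06 ± 0.13. Of its 4 probe sets 1 differed by 0.53 between the numbers and the others by -0.24 to 0.10. A further probe set, assigned to both Tyms and a Tyms pseudogene, was not used.

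Among the genes that package and mark the new DNA, Chaf1b, a subunit of the histone chaperone CAF-1, was at 0.27 and -0.22 with Wnt3A, against 0.30 and -0.36 in the controls. Uhrf1, which directs maintenance methylation, was at -0.05 and 0.05 with Wnt3A, against 0.51 and -0.31. The number differences were 0.58 ± 0.11 for Chaf1b (limma unadjusted p = 0.0046) and 0.36 ± 0.25 for Uhrf1. In Chaf1b the Wnt3A arrays were 0.49 apart and the controls 0.66, in the same direction. The 2 Chaf1b probe sets gave number differences of 1.02 and 0.14.

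The G1/S control genes were higher in the array numbered 1 in both groups. Ccne1, which encodes cyclin E1, was at 0.27 and -0.25 with Wnt3A, against 0.31 and -0.45 in the controls, and differed by 0.64 ± 0.12 between the numbers (limma unadjusted p = 0.00458). Ccne2, for cyclin E2, was at 0.13 and -0.17, against 0.46 and -0.13, a difference of 0.44 ± 0.15. E2f1, an activating E2F factor that is itself an E2F target, was at 0.16 and -0.20, against 0.27 and -0.54, a difference of 0.59 ± 0.15. The 3 E2f1 probe sets differed by 0.80, 0.87 and 0.09 between the numbers, and by 0.34, 0.26 and -0.26 between Wnt3A and control. Wnt3A minus control was 0.08 ± 0.32 for Ccne1, -0.18 ± 0.25 for Ccne2 and 0.11 ± 0.32 for E2f1. In these 3 genes both arrays numbered 1 lay above both numbered 2, against 31.5% of all genes as deposited and 23.1% with each array centred.

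Individual probe sets were also counted by level band. Of the 54 probe sets of these genes in the upper band, 53 had a difference above 0 between arrays numbered 1 and 2, with a median of 0.43. In the middle band it was 20 of 24 (median 0.28), and in the lowest band, with few probe sets, 2 of 5 (median -0.02). Counted by gene, the difference was above 0 for 62.2% of all genes and for 5154 of the 9149 genes of the upper band. Shares over all probe sets were not counted. Probe sets of both signs occurred in 8 of the 29 genes with several. Between Wnt3A and control, 39 of all 83 probe sets were above 0 (50.1% of all genes), with a median of -0.01.

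Other genes of the cell cycle were listed for comparison. Of 39 other replication genes, 0 passed limma's adjusted threshold in either comparison, 17 had control 1 highest and control 2 lowest (11.0% of all genes), and 32 were above 0 between the numbers (62.2% of all genes), with a median of 0.20. Their median Wnt3A minus control difference was -0.02, with 2 separated higher and 8 lower, against 17.0% and 17.5% of all genes. The widest number differences were those of Chtf18 (0.63 ± 0.28) and Pold2 (0.61 ± 0.34), parts of an alternative clamp loader and of polymerase delta. From control they were those of Timeless (-0.63 ± 0.45), a fork protection factor, and Orc5 (-0.44 ± 0.19).

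Mitotic genes, which act later in the cycle, had a median of 0.03 and -0.04 in Wnt3A 1 and Wnt3A 2, against 0.34 and -0.19 in the controls. Of 27 measured, 19 had control 1 highest and control 2 lowest (11.0% of all genes), 25 had Wnt3A 1 below control 1 and Wnt3A 2 above control 2 (20.1%), and 0 passed limma's adjusted threshold in either comparison. Their median differences were -0.13 between Wnt3A and control and 0.30 between the numbers. Plk1, a mitotic kinase, differed by 0.72 ± 0.25 between the numbers, and Cenpe, a kinetochore motor, by -0.80 ± 0.20, against the direction of the list.

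Regulators upstream of S phase were more mixed. Of 29, 11 had control 1 highest and control 2 lowest (11.0% of all genes), 20 were above 0 between the numbers (62.2% of all genes, list median 0.16), and 0 passed limma's adjusted threshold in either comparison. Cdk2, the kinase partner of cyclin E, was at 0.40 and -0.41 with Wnt3A, against 0.67 and -0.35 in the controls, a number difference of 0.92 ± 0.13 (limma unadjusted p = 0.00201, adjusted p = 0.296). Ccnd2, cyclin D2, ran the other way, with -0.74 ± 0.16. The 2 inhibitors of cyclin E kinases named by size in the comparison with control differed in sign. Cdkn1a (p21) was at 0.26 and 0.61 with Wnt3A, against -0.19 and -0.31 in the controls, a difference of 0.68 ± 0.16 (limma unadjusted p = 0.0108, adjusted p = 0.545). Cdkn1b (p27) was at -0.03 and -0.19, against 0.45 and 0.18, a difference of -0.42 ± 0.15 (limma unadjusted p = 0.0429, adjusted p = 0.649). The groups did not overlap for either gene. Of the 29 regulators, 2 were separated higher with Wnt3A and 4 lower, against 17.0% and 17.5% of all genes.

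**Figure D4:**
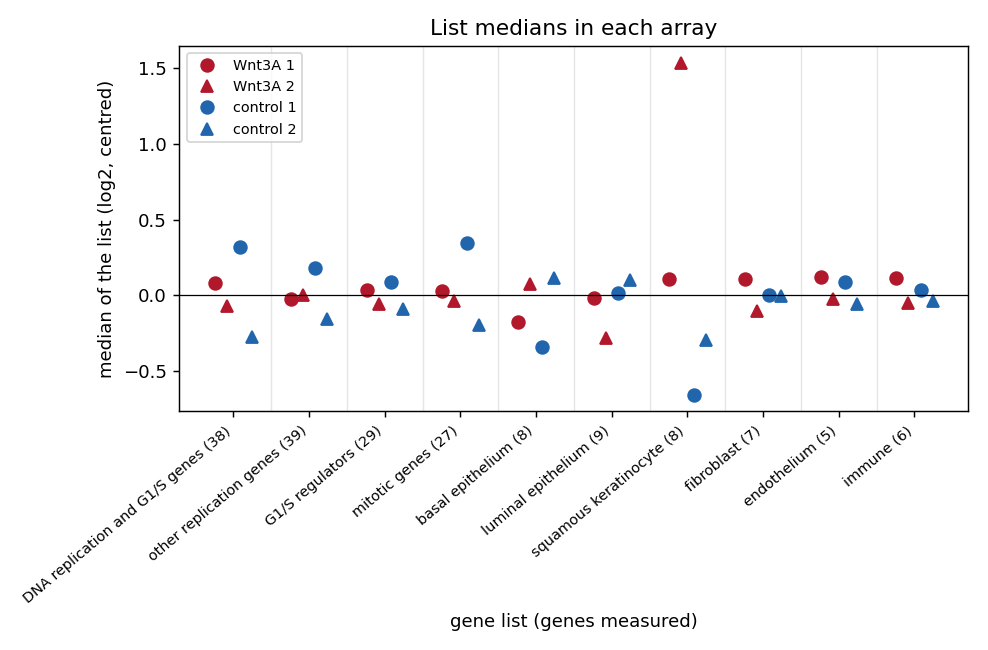
Median of each gene list (x axis, with the number of genes measured) in the 4 arrays, in centred log2 units. Red symbols are Wnt3A and blue are control, circles are arrays numbered 1 and triangles those numbered 2. In the 4 cell cycle lists control 1 is highest and control 2 lowest. In the squamous list Wnt3A 2 is highest, at 1.54.

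Cell type markers also differed between the arrays. Squamous keratinocyte markers had medians of 0.10 in Wnt3A 1 and 1.54 in Wnt3A 2, against -0.66 in control 1 and -0.29 in control 2, and Wnt3A 2 was the highest array for 7 of 8, as it was for 3343 of all 18193 genes. Basal markers had medians of -0.18 and 0.08 with Wnt3A, against -0.34 and 0.11, and 5 of 8 were lower in both arrays numbered 1 than in both numbered 2, against 14.3% of all genes as deposited and 20.2% with each array centred. The largest number difference among them was that of Myh11, a smooth muscle myosin of myoepithelial cells, at -1.43. Krt5 (0.39) and Oxtr (0.16) went the other way. Luminal markers had medians of -0.02 and -0.28, against 0.02 and 0.10. Control 2 was the highest array for 7 of 9, as it was for 3570 of all 18193 genes. Its values for these ran from 0.06 (Krt8) to 1.77 (Krt19). Elf5 was highest in Wnt3A 1, at 0.82, and Kit in control 1, at 0.41. Fibroblast, endothelial and immune marker medians lay between -0.11 and 0.12 in every array, but single markers spread more widely. Col1a2, the fibroblast marker in the upper level band, was at -0.82 in control 1 and 0.58 in control 2. Pdgfra was at 0.79 and 0.14 in these arrays, and the endothelial marker Emcn, in the band below 4, at 0.70 and -0.06. Centred values give no summed level, and the part of these marker differences in the replication values was not tested.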

How the data were processed

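RNA of 4 mouse samples was hybridised to single-colour Affymetrix arrays. The submitters' processing notes name RMA without a version, and the deposited values are log2. Each of the 45101 rows has a median of 0 over the 4 arrays. What centred them is not stated. After 64 array controls were set aside, 34945 probe sets had 1 gene symbol in the platform annotation and were used, 932 had several and 9160 had none.

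From these, gene means were tested with lmFit and eBayes of limma 3.58.1 (R 4.3.3), two-sided and without covariates, adjusting p-values by Benjamini-Hochberg over all 18193 genes (threshold 0.05), for Wnt3A minus control and for arrays numbered 1 minus arrays numbered 2. Standard errors are moderated by eBayes. An exact permutation test of 2 against 2 arrays cannot give a two-sided p below 0.33. Level bands are those of the array with the finest stored step and can be too high. Values in every array are given for the 8 genes furthest from 0 in each comparison, for Mcm2 to Mcm7, Pcna, Ccne1, Ccne2, E2f1 and Gmnn, and for other genes where a role is described, and up to 4 genes by size from each other list. The genes and lists were chosen with earlier results of these data known. Alternatives were other rules for probe sets, a filter on low values, other scalings, robust eBayes, blocks, single probe sets, and each array left out. Tools were Python 3.11.15, numpy 2.4.6, pandas 2.3.3 and matplotlib 3.10.9.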

Additional observations from a re-analysis of the deposited data

How the results depend on the processing

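Under each of 13 alternatives limma called 0 genes in either comparison, with 944 to 2313 unadjusted calls for Wnt3A and 1246 to 4200 for the number. The median Wnt3A difference of the 38 genes lay between -0.34 (without control 2) and 0.29 (without control 1), and the number difference between 0.24 and 0.55 (without Wnt3A 1). Genes whose Wnt3A and control arrays did not overlap numbered 1, against 2 with the median of probe sets, 3 with probe sets of the highest level band, 2 with quantile normalization and 2 with each array centred. Leaving out 1 array gave 5 to 34, where 66.2% to 67.9% of all genes do not overlap, since 1 array then stands against 2. Without control 2, 33 were lower (38.6% of all genes) and 1 higher (28.3%). Without control 1, 33 were higher (38.9% of all genes) and 0 lower (29.0%). Between the numbers the count was 30, against 27 with the median of probe sets, 26 with the highest band, 23 with quantile normalization, 23 with each array centred and 31 to 37 without 1 array, where 72.2% to 73.4% of all genes do not overlap. Some Wnt3A differences near 0 changed sign: Mcm2 was -0.033 without _s_at and _x_at probe sets, Mcm3 -0.015 with the median and -0.025 with the highest band, and with quantile normalization Rpa2 was 0.021 and Lig1 0.0059. With 1 array left out, the Wnt3A difference also turned for 19 of the 22 genes named by the rule. The lowest and highest values were -0.38 and 0.44 for Mcm2, -0.54 and 0.58 for Mcm3, -0.37 and 0.18 for Mcm4, -0.51 and 0.68 for Mcm5, -0.45 and 0.18 for Mcm7, -0.42 and 0.45 for Cdc6 and -0.35 and 0.16 for Gmnn. They were -0.84 and 0.22 for Gins2, -0.033 and 0.61 for Pole, -0.64 and 0.15 for Pold1, -0.22 and 0.32 for Pcna, -0.63 and 0.62 for Rpa2 and -0.50 and 0.48 for Lig1. For the others they were -0.16 and 0.85 for Rrm2, -0.31 and 0.86 for Tk1, -0.56 and 0.072 for Dut, -0.30 and 0.46 for Ccne1, -0.48 and 0.11 for Ccne2 and -0.29 and 0.52 for E2f1. Between the numbers the sign turned for Orc1 (-0.080 to 0.49) and Rfc4 (-0.11 to 0.59). The cause was not tested. Same-numbered arrays deviated together (correlation 0.445 over all genes). With 2 pairs, and no label that says what a set of replicates shares, what they have in common beyond the number is not known. With the number as replicate block limma called 0 genes for Wnt3A (2275 unadjusted, smallest adjusted p 0.194), and with group as covariate 0 for the number (2848 unadjusted, smallest adjusted p 0.171). Signal over background is not given by centred values, and 2 arrays a group limit the precision.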
